A study of Mus musculus with 12 samples.

Results

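Cxcl1, Cxcl2, Cxcl3, Cxcl5 and Ppbp, the chemokines that act on the receptor CXCR2, were examined together with Cxcr2 itself in whole subcutaneous mouse pancreatic tumors. They are 6 of the 22630 gene rows of the expression tables, taken by symbol. The set was chosen by function with their RPKM and counts in the 3 groups of these tumors already known, so every difference between groups in the 6 genes is given as a description, without a test. All 12 tumors grew from 500000 injected cells of KCip53-1, 1 pancreatic cancer line from a mouse whose alleles include Ptf1a-Cre, TREp53R270H and R26rtTa/rtTa, in NSG mice aged 8 to 10 weeks. In this line Cre, driven by Ptf1a in the pancreatic epithelium, had switched on the transactivator rtTa, so that doxycycline (dox) turns on the mutant p53 transgene and a dsRed reporter. The labels give 5% sucrose for all 12 tumors, so sucrose did not differ between the groups. No-dox tumors (n = 4) never received dox, and plus-dox tumors (n = 4) had 36 days of dox at 0.2 g/l. Off-dox tumors (n = 4) had 33 days of dox at 0.2 g/l followed by 3 days without it. No group received dox without carrying the transgene, so dox and mutant p53 cannot be told apart. NSG mice lack mature T, B and NK cells but keep neutrophils, macrophages and platelets. Tumors were not sorted before RNA extraction, so tumor cells and host cells contributed to every value, and fewer cells of a type cannot be told apart from less RNA per cell.

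The 5 ligands carry the Glu-Leu-Arg motif before their CXC cysteines and draw neutrophils out of the blood along a gradient by binding CXCR2, a G protein-coupled receptor found mainly on neutrophils. Cxcl1, Cxcl2 and Cxcl3 are induced by NF-kappaB within hours of IL-1 or TNF signaling and have short-lived mRNAs, Cxcl5 is made largely by epithelial cells, and Ppbp encodes the platelet basic protein that is cut to the CXCR2 ligand CXCL7. In pancreatic tumors this axis is known for the recruitment of granulocytic cells.

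The ligand genes sit side by side. In mm9 they occupy the plus strand of chromosome 5 from 91188325 to 91334964, a stretch of 146.64 kb that holds 7 genes of the tables in the order Cxcl5, Ppbp, Pf4, Cxcl3, Cxcl15, Cxcl1 and Cxcl2. Cxcl5 lies at chr5:91188325-91190651, Ppbp at chr5:91197544-91199086, Cxcl3 at chr5:91215129-91217116, Cxcl1 at chr5:91320271-91322141 and Cxcl2 at chr5:91332925-91334964. Cxcr2 lies apart from them at chr1:74200568-74207820, also on the plus strand. The promoters of 5 of the 6 genes were matched by symbol to RefSeq promoters (build GRCm38.p6, other coordinates than mm9). They are shown because 3 of the ligands share a pair of elements next to the start site. Each run begins 110 bases before the start site and ends 10 bases after it, 5′ to 3′ on the plus strand. Capitals mark matches to the NF-kappaB motif (GGG, then NN for any bases, then TTTCC) on either strand and to the TATA-type element ATAAAAGG on the strand shown.
Cxcl1: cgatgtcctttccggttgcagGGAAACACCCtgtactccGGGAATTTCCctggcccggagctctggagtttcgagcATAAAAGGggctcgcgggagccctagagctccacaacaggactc
Cxcl2: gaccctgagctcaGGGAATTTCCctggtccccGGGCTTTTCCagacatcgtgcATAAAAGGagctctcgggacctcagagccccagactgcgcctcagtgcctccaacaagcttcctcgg
Cxcl3: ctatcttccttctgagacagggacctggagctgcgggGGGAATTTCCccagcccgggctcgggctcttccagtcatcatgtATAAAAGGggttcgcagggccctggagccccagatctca
Ppbp: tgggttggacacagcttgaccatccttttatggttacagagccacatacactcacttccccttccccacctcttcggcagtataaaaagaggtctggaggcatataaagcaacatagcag
Cxcr2: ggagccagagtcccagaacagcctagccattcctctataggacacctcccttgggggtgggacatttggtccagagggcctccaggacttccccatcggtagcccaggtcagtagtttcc
The windows cover chr5:90891135-90891254 for Cxcl1, chr5:90903789-90903908 for Cxcl2, chr5:90785991-90786110 for Cxcl3, chr5:90768408-90768527 for Ppbp and chr1:74153884-74154003 for Cxcr2. The same 10 letters, GGGAATTTCC, began 71 bases before the start of Cxcl1, 97 before Cxcl2 and 73 before Cxcl3. A second match, to other letters of the motif, lay 89 bases before the start of Cxcl1 on the opposite strand and 78 before that of Cxcl2. ATAAAAGG began 34, 57 and 29 bases before the starts of Cxcl1, Cxcl2 and Cxcl3, and did not overlap the NF-kappaB matches. Over the full window of 250 bases before to 50 after the start, the NF-kappaB motif was found in 1.63% of 32851 promoters and ATAAAAGG in 1.15%. Neither was found in the windows of Ppbp and Cxcr2. The AP-1 motif TGANTCA, searched on both strands and present in 7.81% of promoters, was found among these 5 genes in Ppbp alone, 204 bases before its start. These are matches of letters, and no binding was measured.

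Depth ranged from 19845923 to 33137609 reads counted on genes in a tumor. The counted reads made up 88.4 to 89.4% of mapped reads in no-dox, 82.2 to 87.1% in plus-dox and 81.1 to 85.8% in off-dox. This share separates the no-dox tumors from all others and cannot be told apart from dox. Trp53, whose row does not separate the transgene from the native gene, stood at 40.1 to 57.4 RPKM (reads per kilobase of exon, scaled to mapped reads) in no-dox, 40.4 to 56.0 in plus-dox and 41.6 to 45.4 in off-dox tumors, so it did not check the labels. Plus-dox tumor 2 and off-dox tumor 4 had the lowest mean levels of 12 simple epithelial markers, at 3.91 and 5.40 log2 CPM (counts scaled to depth) against 5.86 to 7.44 in the other 10 tumors. Results that rest on them are given with and without them. By the summed RPKM of the same markers off-dox tumor 3 was lower, at 1115, against 1368 in plus-dox tumor 2 and 1584 in off-dox tumor 4.

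Cxcl1 and Cxcl5 were the abundant ligands in every tumor, whatever its dox history. Per kilobase of exon, both were above Cxcl2, Cxcl3 and Ppbp in 12 of 12 tumors. Averaged over the 12 tumors, Cxcl5 stood at 20.1 ± 7.3 RPKM (mean ± SD, n = 12) and Cxcl1 at 19.3 ± 6.7, at about the 84th and 83rd percentile of all genes, while Cxcl3, Cxcl2 and Ppbp averaged 1.74 ± 2.39, 1.45 ± 1.16 and 0.861 ± 0.803. Cxcl1 and Cxcl5 could not be ordered, Cxcl5 being the higher in 5 of 12 tumors, and neither could Cxcl2 and Cxcl3, of which Cxcl3 was the higher in 4. Cxcr2, at 2.13 ± 0.69 RPKM, had the smallest range, with its highest tumor 2.81 times its lowest, while Cxcl3 had the widest, a ratio of 64.8.

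**Figure D1:**
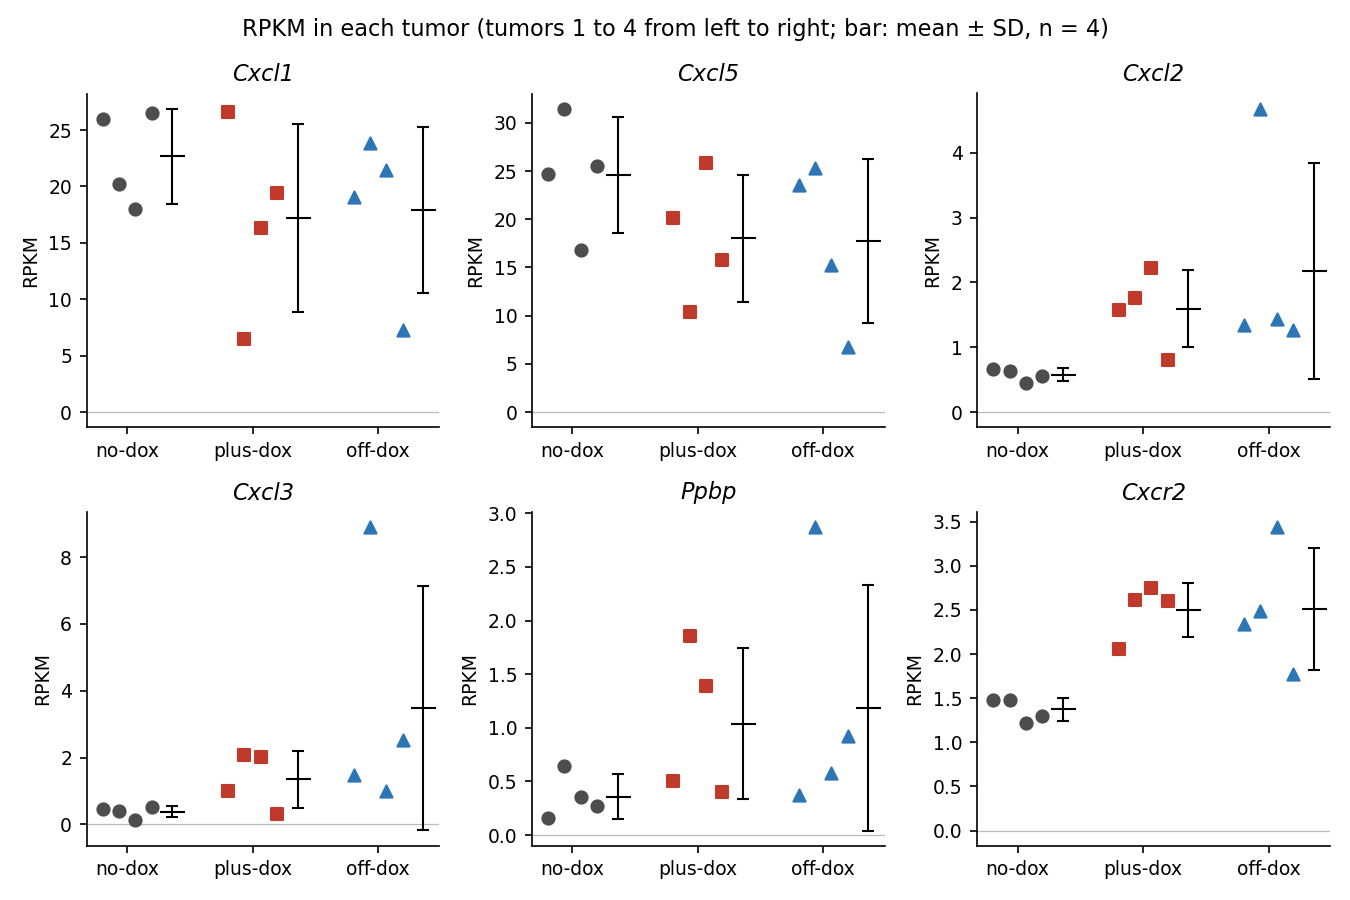
Level of each gene (vertical axis, RPKM, from 0) in the 12 tumors by group (horizontal axis), with tumors 1 to 4 of a group from left to right and the group mean ± SD beside them. Cxcl1 and Cxcl5 overlap between groups, while all 4 plus-dox and all 4 off-dox tumors lie above the no-dox tumors for Cxcl2 and Cxcr2.

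Cxcl1, the chief mouse neutrophil chemoattractant, overlapped between all groups. Its RPKM in tumors 1 to 4 was 25.9, 20.2, 18.0 and 26.6 in no-dox, 26.6, 6.48, 16.3 and 19.4 in plus-dox, and 19.1, 23.8, 21.5 and 7.26 in off-dox. The low values belonged to the tumors with the lowest mean log2 CPM of epithelial markers, plus-dox tumor 2 and off-dox tumor 4. Group means were 22.7 ± 4.2, 17.2 ± 8.4 and 17.9 ± 7.4 (n = 4 each). The fitted log2 difference from no-dox was −0.40 (SE 0.39) in plus-dox and −0.32 (SE 0.39) in off-dox. Without those 2 tumors it was −0.13 and −0.06, and the means were 20.8 ± 5.3 and 21.5 ± 2.4 RPKM (n = 3 each).

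Cxcl5, the ligand made by epithelium, behaved alike. It stood at 24.7, 31.5, 16.8 and 25.5 RPKM in no-dox tumors, 20.1, 10.4, 25.9 and 15.8 in plus-dox tumors, and 23.6, 25.3, 15.3 and 6.73 in off-dox tumors. The groups overlapped, and the same 2 tumors were the lowest of all 12. The log2 difference from no-dox was −0.43 (SE 0.37) in plus-dox and −0.45 (SE 0.37) in off-dox, and −0.24 and −0.18 without the 2 tumors.

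Cxcl2, first described as macrophage inflammatory protein-2, was low in no-dox tumors and higher in every tumor that had received dox. It was measured at 0.665, 0.635, 0.450 and 0.556 RPKM in no-dox, 1.58, 1.77, 2.22 and 0.798 in plus-dox, and 1.34, 4.68, 1.43 and 1.26 in off-dox tumors. No plus-dox or off-dox tumor fell within the no-dox range, whereas plus-dox and off-dox overlapped. These levels rest on 14 to 24 counts per tumor in no-dox and 22 to 123 in the others. The log2 difference from no-dox was 1.50 (SE 0.47) in plus-dox, or 2.83-fold, and 1.95 (SE 0.47) in off-dox, or 3.86-fold. Off-dox tumor 2 alone lay far above its group, and without it the off-dox difference was 1.26.

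Cxcl3, the closest relative of Cxcl2 in the cluster, had the largest differences. Its no-dox levels were 0.465, 0.393, 0.137 and 0.533 RPKM, its plus-dox levels 0.993, 2.08, 2.03 and 0.311, and its off-dox levels 1.49, 8.90, 1.00 and 2.53. All 4 off-dox and 3 of 4 plus-dox tumors were above the highest no-dox tumor, with plus-dox tumor 4 inside the no-dox range. Counts were 4 to 20 in no-dox tumors and reached 218 in off-dox tumor 2. The log2 difference from no-dox was 1.85 (SE 0.76) in plus-dox and 3.19 (SE 0.78) in off-dox, and off-dox exceeded plus-dox by 1.34 (SE 0.72). Without off-dox tumor 2 this last value was 0.31, and the off-dox difference from no-dox 2.16. Of the distinct 50-base stretches in the exons of Cxcl3, 6.35% are also in Cxcl2, as are 3.33% of those of Cxcl2 in Cxcl3, so reads from these stretches can belong to either gene.

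Ppbp, a platelet and megakaryocyte product, was the lowest of the 5 ligands in 8 of 12 tumors. It stood at 0.164, 0.646, 0.354 and 0.275 RPKM in no-dox, 0.504, 1.85, 1.39 and 0.400 in plus-dox, and 0.377, 2.87, 0.576 and 0.926 in off-dox tumors. The groups overlapped, with 2 of 4 plus-dox and 2 of 4 off-dox tumors above the highest no-dox tumor, on 6 to 75 counts per tumor. The log2 difference from no-dox was 1.58 (SE 0.71) in plus-dox and 1.75 (SE 0.72) in off-dox, the latter 0.86 without off-dox tumor 2. Pf4, its neighbor in the cluster and the other chemokine of platelet granules, was far higher at 63.1 RPKM over the 12 tumors, and its log2 difference from no-dox was 0.18 (SE 0.28) in plus-dox and 0.25 (SE 0.28) in off-dox. Of 12 platelet and megakaryocyte markers, 8 averaged 0.25 RPKM or less. The defining receptor Gp6 was near 0 in all groups, at 0 in 3 of 4 no-dox, 2 of 4 plus-dox and 4 of 4 off-dox tumors. The sum of the list was 49.1 to 76.4 RPKM in no-dox, 57.9 to 81.4 in plus-dox and 42.9 to 107.2 in off-dox tumors. Most of this sum was Pf4 itself, at 101.6 of 107.2 RPKM in off-dox tumor 3 and 35.95 of 42.9 in off-dox tumor 4. Of the list 0 genes were called, and its mean log2 CPM gave r = 0.257 with Ppbp.

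Cxcr2, the receptor for all 5 ligands, was higher in every dox-exposed tumor. Its RPKM in tumors 1 to 4 was 1.48, 1.48, 1.22 and 1.30 in no-dox, 2.05, 2.61, 2.74 and 2.60 in plus-dox, and 2.34, 2.49, 3.44 and 1.78 in off-dox. Neither dox-exposed group overlapped the no-dox group, and plus-dox and off-dox overlapped each other. Means were 1.37 ± 0.13, 2.50 ± 0.31 and 2.51 ± 0.69 RPKM (n = 4 each). The log2 difference from no-dox was 0.88 (SE 0.19) in plus-dox and 0.90 (SE 0.19) in off-dox, that is 1.84-fold and 1.86-fold, and off-dox differed from plus-dox by 0.01 (SE 0.19). With the share of counted reads as a covariate the differences from no-dox were 0.50 in plus-dox and 0.35 in off-dox for Cxcr2, and 0.99 and 1.18 for Cxcl2. Plus-dox and off-dox were both compared with the same 4 no-dox tumors.

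**Figure D2:**
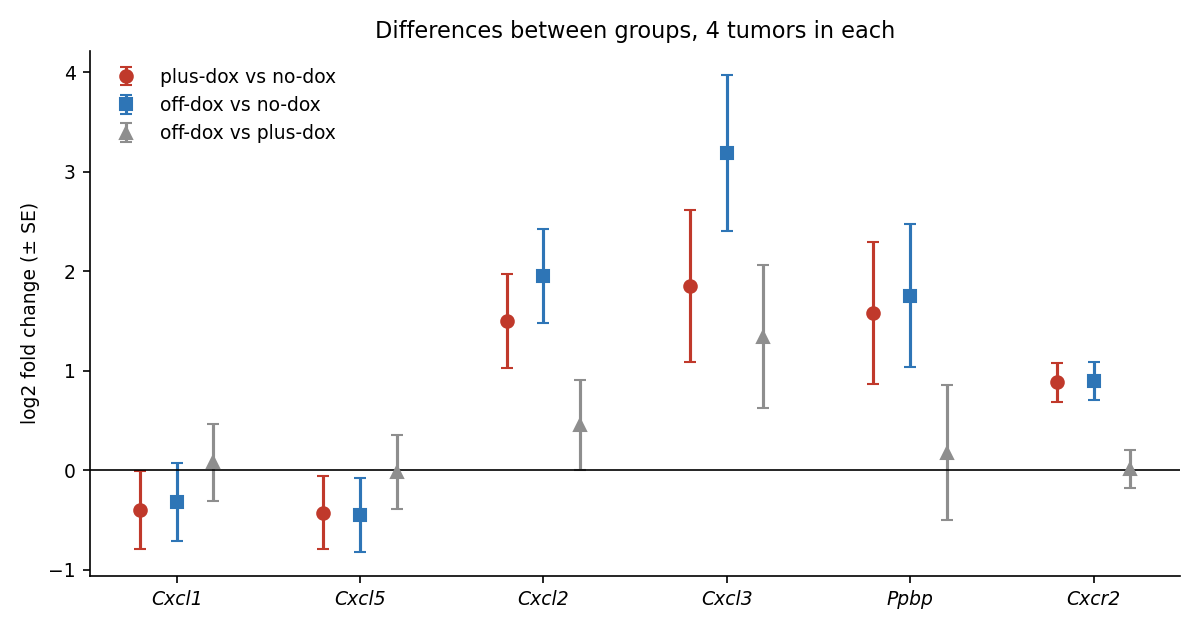
Fitted log2 fold change ± SE (vertical axis) of each gene (horizontal axis) for plus-dox against no-dox, off-dox against no-dox and off-dox against plus-dox, 4 tumors per group. Cxcl2, Cxcl3, Ppbp and Cxcr2 lie above 0 against no-dox in both dox-exposed groups, Cxcl1 and Cxcl5 lie below 0, and only Cxcl3 lies over 1 in off-dox against plus-dox.

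The limits for a change over all 17561 genes tested were an adjusted p under 0.1 in edgeR's quasi-likelihood test, a change over 1.5-fold, a mean over 0.25 RPKM and a length over 250 bp. In plus-dox against no-dox 0 of the 6 genes were past the limits, and 0% of all genes were. In off-dox against no-dox 3 were past them, Cxcl2, Cxcl3 and Cxcr2, where 1.34% of all genes were. In off-dox against plus-dox 0 were, again beside 0% of all genes. Of all genes, 4.3% lay entirely above no-dox in plus-dox tumors, where Cxcl2 and Cxcr2 did, and 4.99% in off-dox tumors, where Cxcl2, Cxcl3 and Cxcr2 did. The median log2 difference of the 6 genes was 1.19, 1.32 and 0.13 in plus-dox against no-dox, off-dox against no-dox and off-dox against plus-dox, beside 0.013, 0.0072 and −0.00051 over all genes. The 3 in off-dox against no-dox fell to 0 when any no-dox tumor, plus-dox tumor 3 or 4, or off-dox tumor 2, 3 or 4 was left out, and stayed at 3 without both plus-dox tumor 2 and off-dox tumor 4. With DESeq2 without and with moderated fold changes and with limma-voom, 1 member (Cxcr2) was past the limits in plus-dox against no-dox. Of all genes, 128, 90 and 112 were past them by these tests.

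The make-up of the ligand mRNA differed more than its sum. Summed over the 5 ligands, RPKM was 35.8 to 53.4 in no-dox, 22.5 to 49.8 in plus-dox and 18.7 to 65.6 in off-dox tumors, which overlapped. Cxcl1 and Cxcl5 together made up 96.9 to 97.5% of it in no-dox, 74.7 to 95.9% in plus-dox and 74.8 to 93.0% in off-dox. The share of the rest, Cxcl2, Cxcl3 and Ppbp (the minor ligands), was thus larger in each of the 8 dox-exposed tumors than in any no-dox tumor. In RPKM the minor ligands summed to 0.942 to 1.67 in no-dox, 1.51 to 5.7 in plus-dox and 3.01 to 16.5 in off-dox tumors. Plus-dox tumor 4, at 1.51, was inside the no-dox range, and its Cxcl1 and Cxcl5 summed to 35.2 RPKM, near the low end of the 34.8 to 52.1 in no-dox. The lowest shares, 74.7, 74.9 and 74.8%, were those of plus-dox tumor 2, off-dox tumor 2 and off-dox tumor 4. In off-dox tumor 2 Cxcl1 and Cxcl5 were within the no-dox range, while in the other two they were below it. Cxcl1 exceeded Cxcl2 by 31.8 to 47.8 times in no-dox, 3.67 to 24.4 times in plus-dox and 5.09 to 15.0 times in off-dox tumors.

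**Figure D3:**
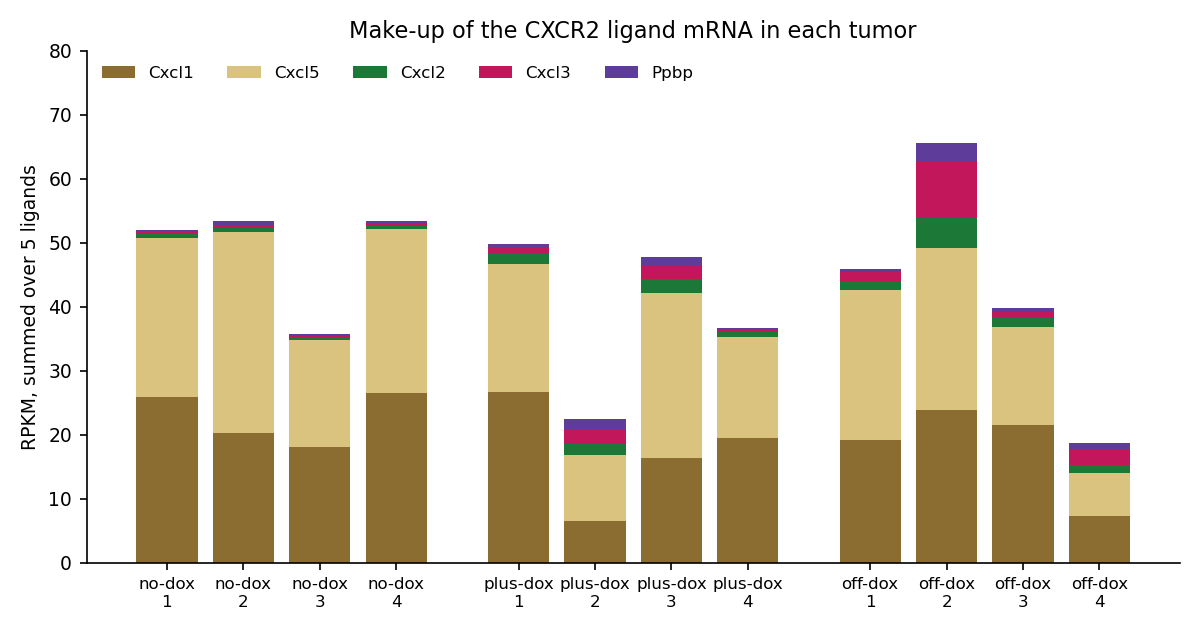
RPKM of the 5 ligands stacked from 0 (vertical axis) for each of the 12 tumors (horizontal axis), Cxcl1 and Cxcl5 at the bottom. The upper segments of Cxcl2, Cxcl3 and Ppbp are thin in the 4 no-dox tumors and widest in off-dox tumor 2, where they make up the rest beside the 74.9% of Cxcl1 and Cxcl5.

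Across the 12 tumors Cxcl2, Cxcl3 and Ppbp varied together, while Cxcl1 and Cxcl5 were less closely tied. Correlations of log2 CPM are given as descriptions over 12 tumors that share their group, depth and cell make-up. Cxcl2 and Cxcl3 had the highest, with Pearson r = 0.933 and Spearman rho = 0.804, and r = 0.892 once group means were removed. Ppbp went with both, with r = 0.835 for Cxcl2 and 0.807 for Cxcl3. Cxcl1 went with Cxcl5 (r = 0.795), but this rests on the 2 tumors with the lowest mean log2 CPM of epithelial markers. Without the 2 tumors farthest from the median of Cxcl1, r was 0.123. Of Cxcl1 and Cxcl5 with the minor ligands r was near 0 or negative, at −0.176 for Cxcl1 with Cxcl2, −0.473 for Cxcl1 with Ppbp and −0.0583 for Cxcl5 with Cxcl2. With group means removed it was positive for several pairs, at 0.495 for Cxcl5 with Cxcl2, 0.254 for Cxcl5 with Cxcl3 and 0.164 for Cxcl1 with Cxcl2, and it stayed negative for Cxcl1 with Ppbp, at −0.351. Cxcr2 gave r = 0.734 with Cxcl2, which was 0.178 with group means removed.

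**Figure D4:**
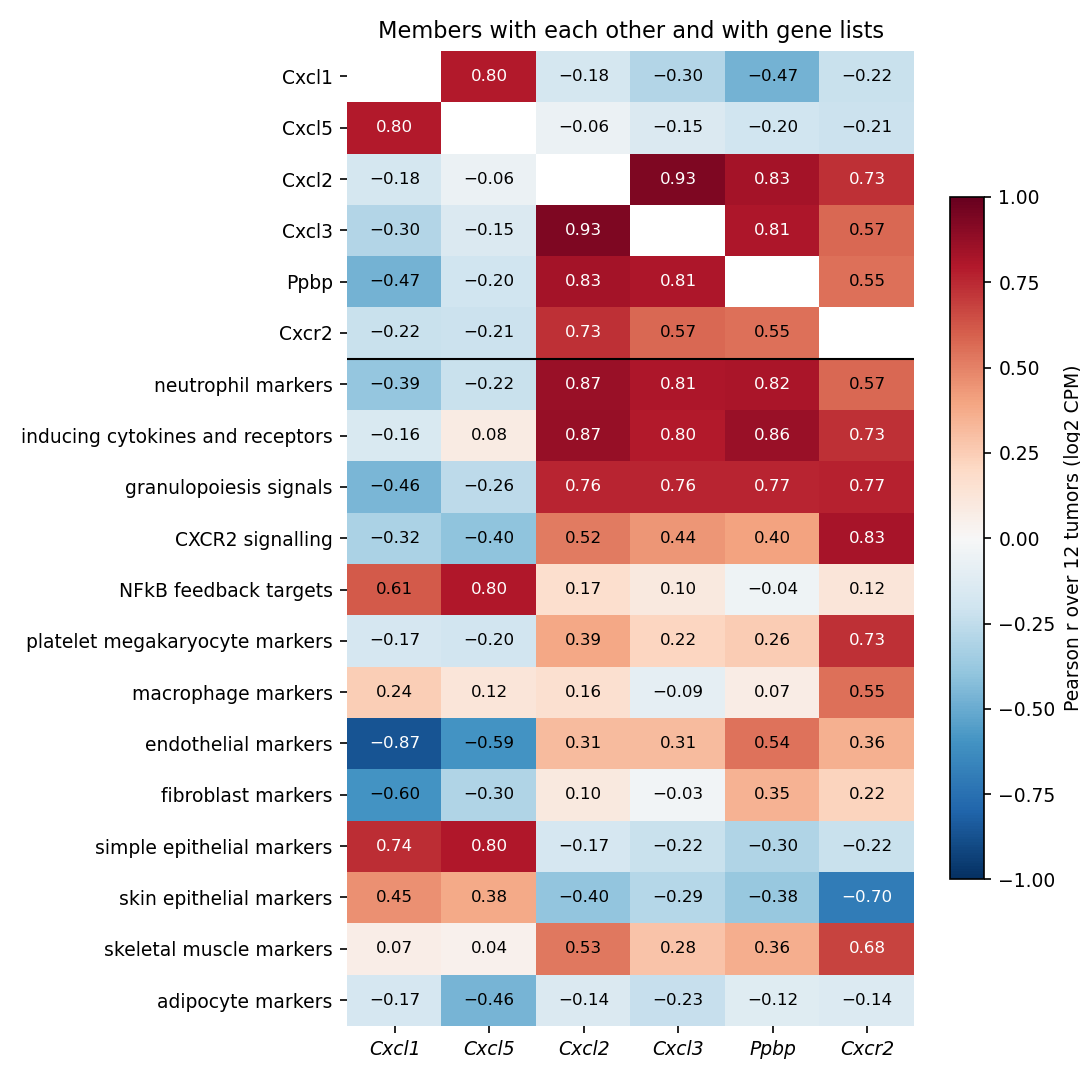
Pearson r over 12 tumors (color scale from −1 to 1, values printed) between the 6 genes (columns) and between each gene and the mean log2 CPM of gene lists (rows). Cxcl2, Cxcl3 and Ppbp share high values with each other and with the neutrophil and inducing cytokine lists. Cxcl1 and Cxcl5 share theirs with each other, with simple epithelial markers and with NF-kappaB feedback targets. Without the 2 tumors farthest from the median of Cxcl1, its r was 0.123 with Cxcl5, −0.377 with simple epithelial markers and 0.145 with NF-kappaB feedback targets.

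Neutrophil markers correlated with the minor ligands. Of the 22 markers listed, 21 are in the tables and Ly6g is not, and 14 averaged over 0.25 RPKM. Of the granule genes transcribed in the bone marrow, Mpo, Elane, Ngp and Camp were near 0, at 0.0489, 0.0483, 0.0343 and 0.0832 RPKM, but Ltf, which encodes lactoferrin and is also made by glandular epithelium, averaged 6.86. Ltf ran opposite to most of the list, with log2 differences from no-dox of −1.24 (SE 0.88) in plus-dox and −1.41 (SE 0.88) in off-dox, and was not called. Summed over the list, RPKM was 57.6 to 82.8 in no-dox, 69.8 to 262.8 in plus-dox and 71.4 to 151.4 in off-dox tumors. The highest sums, in plus-dox tumor 2 and off-dox tumor 4, were 65.8% and 73.3% Mmp9, a gelatinase also made by other cells, and without Mmp9 the sums were 46.6 to 64.6, 50.8 to 89.8 and 40.5 to 83.9 RPKM. S100a8 and S100a9, the abundant neutrophil calgranulins, overlapped between groups, with means of 8.98 ± 1.89 and 15.9 ± 3.9 RPKM in no-dox, 13.3 ± 4.1 and 25.6 ± 6.2 in plus-dox, and 12.2 ± 3.8 and 19.7 ± 6.4 in off-dox tumors. In plus-dox against no-dox 18 of the 21 markers had a positive log2 difference, with a median of 0.61. None of them was called by edgeR, and 4 had an unadjusted p under 0.05 in edgeR, beside 13.7% of all genes. Csf3r was called there by DESeq2 without moderated fold changes and by limma-voom. In off-dox against no-dox 17 were positive, with a median of 0.47. In edgeR 3 had an unadjusted p under 0.05, beside 20.4% of all genes. In that comparison edgeR called 1, Csf3r, beside 1.34% of all genes, while limma-voom also called Fpr2, a formyl peptide receptor. The mean of the list correlated with Cxcl2 (r = 0.866), Ppbp (0.817) and Cxcl3 (0.806), and negatively with Cxcl1 (−0.39) and Cxcl5 (−0.223). It correlated less with Cxcr2 (0.575, and 0.118 with group means removed). With the mean of the macrophage markers Cxcr2 gave r = 0.553, and 0.782 with group means removed. The part of neutrophil or macrophage content in the differences of the 6 genes was not tested.

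Cxcr2 followed Csf3r, the receptor for the neutrophil growth factor G-CSF, more closely than any other gene. Over 14542 genes searched, the highest r with Cxcr2 was that of Csf3r, 0.979, and 0.969 without the 2 tumors farthest from the median. Csf3r stood at 4.35, 4.47, 3.62 and 3.49 RPKM in no-dox, 5.52, 6.26, 6.40 and 6.39 in plus-dox, and 6.67, 6.58, 9.02 and 4.55 in off-dox tumors. The dox-exposed groups lay above no-dox for both receptors, and Csf3r was 2.33 to 3.01 times Cxcr2 in every tumor. In off-dox against no-dox Csf3r rose by 0.78 on the log2 scale (SE 0.17, adjusted p = 0.0832, edgeR), and in 22 alternative settings of edgeR, DESeq2 and limma it was called in 9, with adjusted p from 0.0025 to 1. Its ligand gene Csf3 averaged 1.69 ± 0.19, 1.59 ± 0.75 and 2.12 ± 0.29 RPKM in no-dox, plus-dox and off-dox tumors. Csf2ra, Cxcr4 and Csf2rb, the most abundant of the 8 granulopoiesis genes, differed from no-dox in off-dox by 0.27 (SE 0.17), 0.40 (SE 0.20) and 0.55 (SE 0.16) on the log2 scale and were not called, except Csf2rb without off-dox tumor 1. Zc3h12d, Dennd1a, Zfp169 and Gm19757 were next to Csf3r in likeness to Cxcr2, with r of 0.942, 0.941, 0.936 and 0.929.

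Among 14 genes of CXCR2 signaling in neutrophils, edgeR called 1 in off-dox against no-dox, beside 1.34% of all genes. It was Plcb2, the phospholipase C that Gi-coupled chemokine receptors activate in blood cells. Plcb2 was at 1.87, 1.76, 1.19 and 1.24 RPKM in no-dox tumors, 2.15, 2.39, 1.83 and 2.44 in plus-dox and 2.35, 2.74, 2.95 and 2.70 in off-dox tumors. All off-dox tumors were above all no-dox tumors, and plus-dox tumor 3 fell within the no-dox range. It rose by 0.87 on the log2 scale in off-dox (SE 0.15, adjusted p = 0.0786, edgeR) and was called in 9 of 22 alternative settings. Without both plus-dox tumor 2 and off-dox tumor 4, Pik3cg and Pik3r5, the catalytic and a regulatory subunit of PI3K-gamma, were called too, at 0.632 (SE 0.172) and 0.595 (SE 0.138). The most abundant genes of the list were Gnai2 and Gnb2, G protein subunits of nearly all cells, and Arrb2, the arrestin that desensitizes the receptor. Their log2 differences were −0.01 (SE 0.16), −0.16 (SE 0.11) and 0.49 (SE 0.15), and none of them was called. The list as a whole had a median of 0.30, with 12 of 14 positive, and its mean gave r = 0.826 with Cxcr2. In edgeR 7 of the 14 had an unadjusted p under 0.05 in off-dox against no-dox, beside 20.4% of all genes. In plus-dox against no-dox 4 did, beside 13.7% of all genes.

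Il1b, which encodes the IL-1 that induces Cxcl1, Cxcl2 and Cxcl3, was the gene most like Cxcl3 (r = 0.918, and 0.888 without the 2 tumors farthest from the median). Its RPKM was 16.3, 12.7, 11.2 and 13.7 in no-dox, 17.1, 21.2, 17.3 and 10.1 in plus-dox, and 20.9, 29.6, 21.7 and 24.0 in off-dox tumors. All off-dox tumors lay above the no-dox tumors, off-dox tumor 2 being the highest as it was for Cxcl3, and plus-dox overlapped no-dox. In off-dox against no-dox Il1b rose by 0.87 on the log2 scale (SE 0.21, adjusted p = 0.0884, edgeR), and was called in 8 of 22 alternative settings. It was the 1 gene called by edgeR of 16 tested among 18 inducing cytokines and their receptors, beside 1.34% of all genes. Of the 16, 10 were positive, with a median of 0.21. Il1a, which encodes the other IL-1, differed by 1.06 (SE 0.40, adjusted p = 0.173, edgeR) and was called by DESeq2 with and without moderated fold changes and by limma-voom, with adjusted p of 0.0761, 0.0789 and 0.0835. Il1b also leads that list in abundance together with Tnfrsf1a, a TNF receptor, and Il1rn, the IL-1 receptor antagonist, whose log2 differences were −0.40 (SE 0.13) and −0.21 (SE 0.23). Il17a, the T cell cytokine that stabilizes these mRNAs, was listed at 0 in every tumor. In plus-dox against no-dox 0 of the list were called by edgeR, DESeq2 or limma-voom. Unadjusted p in edgeR was under 0.05 for 3 of the 16 in plus-dox against no-dox, beside 13.7% of all genes. It was so for 6 of the 16 in off-dox against no-dox, beside 20.4% of all genes. The mean of the list gave r = 0.869 with Cxcl2, 0.865 with Ppbp and 0.796 with Cxcl3.

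**Figure D5:**
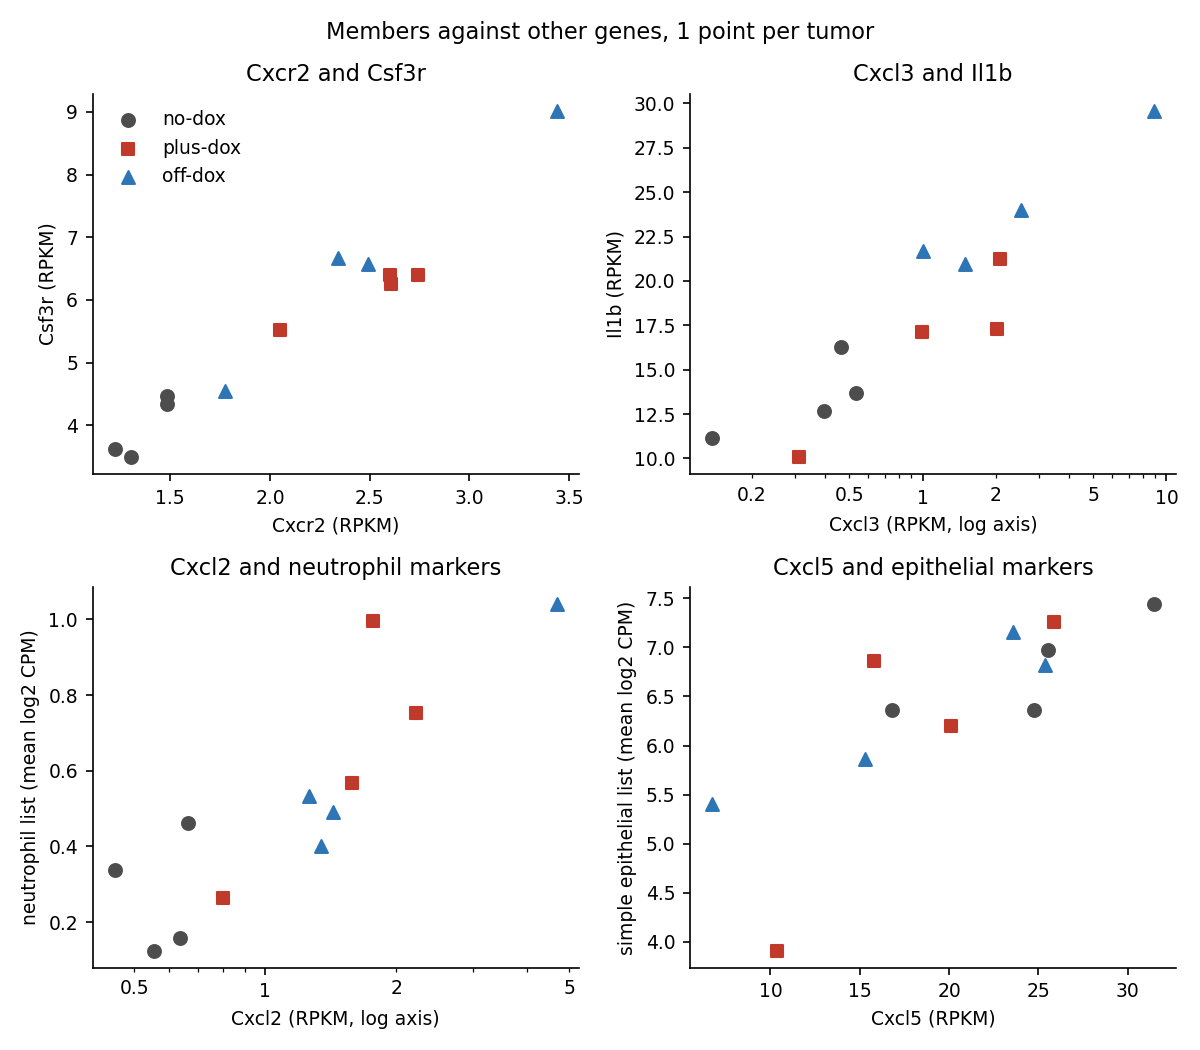
Each point is 1 of 12 tumors, by group: Cxcr2 against Csf3r and Cxcl3 against Il1b in RPKM, Cxcl2 (RPKM) against the mean log2 CPM of neutrophil markers, and Cxcl5 (RPKM) against that of simple epithelial markers, with log axes where labeled. The no-dox tumors lie lowest on both axes for Cxcr2 and Csf3r. Their Il1b and neutrophil marker levels overlap those of dox-exposed tumors. Off-dox tumor 2, at 4.68 RPKM for Cxcl2 and 8.90 for Cxcl3, lies at the far right of the panels of these genes.

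With all 12 tumors no gene of NF-kappaB feedback passed the limits. Of 17 NF-kappaB subunits, inhibitors and targets 0 were called in any comparison by edgeR, DESeq2 or limma-voom. In edgeR 2 in plus-dox and 3 in off-dox against no-dox had an unadjusted p under 0.05, beside 13.7% and 20.4% of all genes, with medians of −0.0069 in plus-dox and 0.016 in off-dox against no-dox. Nfkbia, Nfkbiz and Rela, the most abundant, had off-dox differences of −0.0032 (SE 0.13), 0.38 (SE 0.31) and 0.013 (SE 0.14) on the log2 scale. Without both plus-dox tumor 2 and off-dox tumor 4, Nfkbiz, an atypical NF-kappaB inhibitor, was called by edgeR in off-dox against no-dox, at 0.594 (SE 0.136, adjusted p = 0.0718). Of 10 regulators of chemokine mRNA decay 0 were called by the same tests, 1 had an unadjusted p under 0.05 in off-dox against no-dox, and Zfp36l2, Zfp36l1 and Khsrp, the most abundant, differed by 0.034 (SE 0.13), 0.11 (SE 0.26) and 0.14 (SE 0.10). The NF-kappaB list gave r = 0.80 with Cxcl5, 0.614 with Cxcl1, 0.17 with Cxcl2 and 0.10 with Cxcl3. Without the 2 tumors farthest from the median of each gene, r was 0.639 for Cxcl5 and 0.145 for Cxcl1.

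No other CXC chemokine or receptor passed the limits. Of 10 other ligands 0 were called in any comparison by edgeR, DESeq2 or limma-voom. In edgeR 2 in plus-dox and 0 in off-dox against no-dox had an unadjusted p under 0.05, beside 13.7% and 20.4% of all genes. Their median log2 differences were 0.28 in plus-dox and 0.12 in off-dox against no-dox. Cxcl14 was the most abundant at 203 RPKM, followed by Cxcl16, the membrane-bound ligand of CXCR6, at 75.8 and Pf4 at 63.1. Their off-dox differences were 0.48 (SE 0.32), −0.19 (SE 0.24) and 0.25 (SE 0.28) on the log2 scale. Cxcl17, a mucosal chemokine, differed from no-dox in off-dox by −1.31 (SE 0.68), and was called only without both plus-dox tumor 2 and off-dox tumor 4. Cxcl15, which lies between Cxcl3 and Cxcl1, was at 0.137 to 2.59 RPKM and overlapped between groups. Of 8 other CXC or decoy receptors 7 were tested and 0 called. Cxcr1, the other receptor of this family, was at 0 in every no-dox and off-dox tumor and at most 0.0373 RPKM in plus-dox. Cxcr7, Cxcr4 and Darc, the most abundant, differed by −0.098 (SE 0.36), 0.40 (SE 0.20) and −0.45 (SE 0.54) in off-dox against no-dox.

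Cxcl1 and Cxcl5 went with the mean log2 CPM of simple epithelial markers. With the mean of 12 simple epithelial markers r was 0.799 for Cxcl5, and 0.72 without the 2 tumors farthest from its median. It was 0.742 for Cxcl1, but −0.377 without the 2 farthest tumors, so the relation of Cxcl1 rests on those tumors. Summed over the list, RPKM was 2363 to 3276 in no-dox, 1368 to 2126 in plus-dox and 1115 to 2784 in off-dox tumors, and in plus-dox against no-dox 2 of 12 markers had a positive log2 difference, with a median of −0.65 and 0 called by edgeR, while Krt8 was called by DESeq2 and limma-voom there and in off-dox against no-dox. Cxcl1 was negatively related to the 10 endothelial markers (r = −0.867, and −0.712 without the 2 farthest tumors). Their sum was 39.5 to 58.2 RPKM in no-dox, 48.3 to 151.9 in plus-dox and 43.6 to 67.8 in off-dox tumors. The 151.9 was that of plus-dox tumor 2. All 10 were positive in plus-dox against no-dox, with a median of 0.53. EdgeR called 0 of them, with 5 at an unadjusted p under 0.05, beside 13.7% of all genes. Both forms of DESeq2 called Cdh5. It was at 7.68, 57.7, 11.8 and 10.5 RPKM in plus-dox tumors 1 to 4 and at 5.71 to 7.68 in no-dox tumors. Of 9 skin epithelial markers present, edgeR called 1 in off-dox against no-dox, beside 1.34% of all genes. This was Krt14, a basal keratin, which fell by 1.72 on the log2 scale (SE 0.43, adjusted p = 0.0897, edgeR). It was called in 8 of 22 alternative settings. Its level was 27.9, 47.7, 36.3 and 14.4 RPKM in no-dox and 18.2, 4.25, 18.7 and 16.0 in plus-dox tumors. In off-dox tumors it was 6.82, 11.5, 11.1 and 8.13. Flg is not in the tables. Skin markers gave r = −0.702 with Cxcr2, but −0.101 with group means removed. Skeletal muscle markers gave 0.68, and 0.659 with group means removed. The muscle markers summed to 14.3 to 202 RPKM in no-dox, 145 to 466 in plus-dox and 13.2 to 1291 in off-dox tumors, and had the largest shift of any list against no-dox. All 10 had positive log2 differences in both comparisons, with medians of 1.39 in plus-dox and 2.53 in off-dox. With all 12 tumors edgeR called 0 of them. At an unadjusted p under 0.05 in edgeR were 1 in plus-dox and 6 in off-dox, beside 13.7% and 20.4% of all genes. DESeq2 without moderated fold changes called Myh4 in plus-dox and Ckm, Myh4, Mylpf and Ttn in off-dox. Without both plus-dox tumor 2 and off-dox tumor 4, edgeR called 8 in off-dox. Macrophage, fibroblast and adipocyte markers had 0 genes called by edgeR with all 12 tumors, with sums over the 12 tumors of 2353 to 4278, 1347 to 3421 and 17.8 to 1114 RPKM. Of the fibroblast markers, Col1a1 was called in plus-dox against no-dox by both forms of DESeq2 and by limma-voom, and Lum in off-dox against no-dox by DESeq2 without moderated fold changes. Of the macrophage markers, Itgam, which neutrophils also carry, was called in off-dox against no-dox by limma-voom, and by edgeR without both plus-dox tumor 2 and off-dox tumor 4. The part of these contents in the levels of the 6 genes was not tested.

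The genes most like each ligand were sought by their r over the same 14542 genes. For Cxcl1 they were Zfp120 (r = 0.985), 2210408F21Rik, Lemd1, Fbxl5 and Gm20300 (0.965), of which Zfp120 kept 0.893 and Fbxl5 0.693 without the 2 farthest tumors. For Cxcl5 they were Lmo7 (0.948), 4921507P07Rik, Vnn3, Kif21a and 2310008H04Rik (0.94). Cxcl2 was most like Tram2 (0.914), Slfn4 (0.876), B3gat2, Taf15 and Cd274 (0.866), the last encoding the immune checkpoint ligand PD-L1. Cxcl3 was most like Il1b, Cd274 (0.909), Spib, Bclaf1 and Taf15 (0.885), so Cd274 and Taf15 are in both lists. Cd274 averaged 2.69 ± 0.35, 3.96 ± 1.21 and 4.67 ± 1.09 RPKM in no-dox, plus-dox and off-dox tumors. Ppbp was most like Osm (0.906), which encodes the cytokine oncostatin M, then Mir763, Ahctf1, Snord37 and Cables2 (0.887).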

How the data were processed

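RNA from 12 whole tumors was sequenced as non strand-specific poly(A) libraries. Per the submitters' processing notes and the study's methods, the authors used CASAVA 1.8.2, Bowtie 0.12.8, TopHat 1.4.1 and bedtools 2.16.2, mapped to mm9 and counted RefSeq gene models without strand on unambiguous exonic spans. The authors deposited expected counts, computed from base coverage and mostly not whole, and RPKM per gene. Without strand, overlapping and antisense genes cannot be told apart. Counts were rounded and fitted for all 3 groups together with edgeR 4.0.16 (R 4.3.3, TMM, quasi-likelihood, Benjamini-Hochberg), on 17561 genes whose counts summed to 10 or more. Depth was 19845923 to 33137609 counted reads. Log2 CPM used a prior count of 2. DESeq2 1.42.0 and limma 3.58.1 were alternatives, and the code was tested on simulated data.

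Each mouse carried more than 1 tumor and the labels do not say which tumors shared a mouse. P-values therefore take tumors as independent and measure only the spread between them. No libraries of a group agreed within sampling noise. The named genes were the 6 members, the up to 3 most abundant and any called genes of each pathway list, the sums and defining markers of each marker list, and the 5 genes with the highest r for each member. Members and lists were chosen with earlier results of these data known. Motifs were searched in RefSeq promoters, and Cxcl5 had no entry. An allele of the line and a marker gene are not reported here.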

Additional observations from a re-analysis of the deposited data

Results flagged for a closer look

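Cxcl2 in off-dox tumor 2 stood at 4.68 RPKM, far above the 1.26 to 1.43 of the other off-dox tumors. The gap took up 0.951 of the range of its group, above the 95% limit of Dixon's test for 4 tumors. It was the 1 such value in 18 groups of 4 tumors examined for the 6 genes, and chance gives about 1 in 20. Off-dox tumor 2 was also the highest tumor for Cxcl3, at 8.90 RPKM, for Ppbp, at 2.87, and for Il1b, at 29.6, while its Cxcr2, at 2.49, was close to the off-dox mean of 2.51. Without it the log2 difference of Cxcl2 in off-dox against no-dox was 1.26 in place of 1.95.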

How the results depend on the processing

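The count of genes past the limits depended on the test and on single tumors. With DESeq2 without moderated fold changes, DESeq2 with them and limma-voom with tumor weights, 128, 90 and 112 genes were past the limits in plus-dox against no-dox in place of 0, 615, 396 and 641 in off-dox against no-dox in place of 235, and 6, 4 and 0 in off-dox against plus-dox. By these 3 tests 1 of the 6 members, Cxcr2, was past them in plus-dox against no-dox, and 5, 3 and 3 list genes in place of 0. In off-dox against no-dox the list genes were 11, 6 and 8 in place of 4. In edgeR, unadjusted p was under 0.05 for 2400 genes (13.7%) in plus-dox against no-dox, 3586 (20.4%) in off-dox against no-dox and 537 (3.06%) in off-dox against plus-dox. In off-dox against no-dox, without a filter on counts 122 genes, 1 member (Cxcr2) and 2 list genes were past the limits, in the fit of 8 tumors alone 3, 0 and 0, and without both plus-dox tumor 2 and off-dox tumor 4 471, 3 and 17. With the share of counted reads as a covariate or an adjusted p under 0.05, 0, 0 and 0 were.

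The replicate block gave 0 genes, 0 members and 0 list genes in off-dox against no-dox. Tumors with the same number did not deviate together on average, with a mean r of −0.088 (−0.449 to 0.566) over 12 pairs. For the 36 other pairs it was 0.0431 (−0.680 to 0.665). These ranges overlap, so the comparison cannot settle whether the numbers pair the tumors. Leaving out 1 tumor at a time gave 0 to 3 genes in plus-dox against no-dox, 0 to 789 in off-dox against no-dox, 0 to 3 members and 0 to 11 list genes there, and 0 to 1 genes in off-dox against plus-dox. The most were found without off-dox tumor 1 (plus-dox tumor 1 for plus-dox against no-dox). Depth limits Cxcl2, Cxcl3 and Ppbp, which had 4 to 24 counts per no-dox tumor. Against no-dox the sign of the log2 difference was kept in all 132 alternatives of each comparison for the 6 members, and in off-dox against plus-dox it changed in 18 of 132. Its size moved by more than the spread between tumors in 5 alternatives of plus-dox and 6 of off-dox against no-dox. With the share of counted reads as a covariate, Cxcr2 was at 0.50 and 0.35 in plus-dox and off-dox in place of 0.88 and 0.90, and Cxcl2 at 0.99 and 1.18 in place of 1.50 and 1.95. The moderated fold changes of DESeq2 gave 0.71 and 0.97 for Cxcl2, 0.43 and 0.97 for Cxcl3 and 0.46 and 0.53 for Ppbp. For Cxcl3 in off-dox against no-dox 0.97 was the lowest value, and leaving out off-dox tumor 3 gave the highest, 3.50.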
